A study of Mus musculus with 10 samples.

Results

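Variant Polycomb repressive complex 1 (variant PRC1) was examined through 10 genes that encode its defining subunits, out of 41091 genes in the count files. They were taken by gene symbol: the Ensembl identifiers of the files were matched to GENCODE mouse names, and all 10 were found. All 10 also passed the filter on low counts, as did 16669 genes in all. PRC1 is a ubiquitin ligase of histone H2A, with RING1 or RNF2 as its catalytic subunit, and it holds developmental genes in a repressed state. The PCGF protein sets the kind of complex. PCGF2 or BMI1 builds canonical PRC1 with a CBX protein that reads methylated histone H3, whereas PCGF1, PCGF3, PCGF5 or PCGF6 builds a variant complex in which RYBP or YAF2 takes the place of the CBX protein. The variant complexes are known for depositing most ubiquitinated H2A in mouse embryonic stem cells.

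The series asked what the loss of CBX proteins, subunits of canonical PRC1, does in regenerating olfactory epithelium. Epithelium of adult C57BL6 mice was taken 9 days after a lesion with methimazole, a drug that destroys the olfactory epithelium and sets off its regrowth, then dissociated and grown attached to gelatin in medium with EGF and FGF2. All cultures received a lentiviral short hairpin: 3 libraries carried a hairpin against Cbx8 (shCBX8 replicates 1, 2 and 6), 3 carried one against Cbx7 (shCBX7 replicates 1, 2 and 5) and 4 carried a scrambled hairpin with no target (shCTR replicates 1, 2, 5 and 6). The series' design text speaks of biologic replicates, 3 for each treatment, although 4 libraries carry the shCTR label. It does not say whether they are separate animals or separate cultures, and p-values cover the spread among these libraries. In these bulk cultures, fewer cells of a type and less RNA per cell cannot be told apart.

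The libraries held 22763014 to 50463172 gene counts. Cbx8 fell in shCBX8, to 4.98, 5.14 and 4.71 CPM (counts scaled to a common library size), against 12.4, 15.9, 10.2 and 10.8 CPM in shCTR (log2 fold change -1.31, SE 0.22, edgeR adjusted p = 0.00416). That call ended with the background covariate described below (adjusted p = 0.119). Cbx7 was 3.64, 8.01 and 13.1 CPM in shCBX7, against 17.6, 16.4, 13.4 and 5.29 CPM in shCTR (-0.67, SE 0.48, adjusted p = 0.929), so its level does not check that label, and shCBX7 below means the libraries labelled so. An exact two-sided permutation test on the mean difference in log2(CPM + 1), with the smaller tail doubled, gave p = 0.0571 for Cbx8 in shCBX8, the smallest that 3 against 4 libraries allow in this form, so it cannot pass 0.05, and p = 0.343 for Cbx7 in shCBX7. Counting label assignments by the absolute difference, a definition added after the doubled-tail p was seen, gave exact p = 0.0286, the smallest in that form, for Cbx8 and p = 0.314 for Cbx7, so the side of 0.05 on which Cbx8 falls depends on the definition. The basal cell markers Krt5, Krt14, Trp63, Icam1 and Itgb4 were measured in every library (summed level 1026 to 1183 CPM in shCBX8, 266 to 842 CPM in shCBX7, 313 to 1049 CPM in shCTR). Of these, Krt14, Trp63 and Itgb4 were higher in every shCBX8 library than in every shCTR library. Of the 7 olfactory neuron markers, the mature markers Omp, Gng13, Cnga2 and Stoml3 stayed under 1 CPM in all 10 libraries, while Gng8 reached 8.90 CPM, Adcy3 58.0 CPM and Gap43 81.6 CPM. Among markers of globose basal cells and neuronal progenitors, Neurog1 and Neurod1 stayed under 1 CPM, while Kit reached 5.27 CPM and Lgr5 13.8 CPM. Some markers of several other cell types, and background counts, also moved with the groups. Sult1c1, of sustentacular cells, measured 184, 87.3 and 405 CPM in shCBX8, against 76.8, 3.55, 46.2 and 37.7 CPM in shCTR, and the pericyte marker Rgs5 measured 5163, 1580 and 3129 CPM in shCBX8, against 1257, 105, 464 and 478 CPM in shCTR. The macrophage marker Cd68, Lgr5 and, at under 1 CPM, Gng13 were likewise higher in every shCBX8 library than in every shCTR library. Sult1c1, Rgs5, Cd68, Lgr5 and Gng13 were each the only gene of their list with that pattern. Those lists held 4 sustentacular, 5 smooth muscle and pericyte, 5 immune, 5 globose basal and 7 neuron markers. Acta2, of the pericyte list, overlapped control (143, 62.6 and 179 CPM in shCBX8, against 368, 468, 109 and 23.7 CPM in shCTR). Neurod1 was lower in every shCBX8 library than in every shCTR library. The 10 fibroblast markers summed to 300, 3057 and 203 CPM in shCBX8 1, 2 and 6, 5477 to 18450 CPM in shCBX7 and 5754 to 33008 CPM in shCTR, and 6 of the 10 were lower in every shCBX8 library than in every shCTR library. Antisense counts over the genes of olfactory and vomeronasal receptors, a measure of background, were 13.8 to 25.1 CPM in shCBX8, 11.7 to 16.8 CPM in shCBX7 and 33.5 to 117 CPM in shCTR. Unmapped reads were 7.28 to 7.81% in shCBX8, 5.03 to 6.20% in shCBX7 and 9.83 to 21.7% in shCTR.

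Relative to the control hairpin, the Cbx8 hairpin cultures had more RNA of Pcgf6 and Yaf2 and less of Kdm2b, Bcor and Auts2. By edgeR's quasi-likelihood test, 5 of the 10 genes passed an adjusted p of 0.05, 2 higher and 3 lower, against a background of 32.9% of all tested genes called in this comparison (17% higher and 15.9% lower). The median log2 fold change of the 10 genes was -0.14, and that of all tested genes was -0.01. With only 10 genes, chosen by name, the difference from that background was not tested and is not read as a result about the list.

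**Figure D1:**
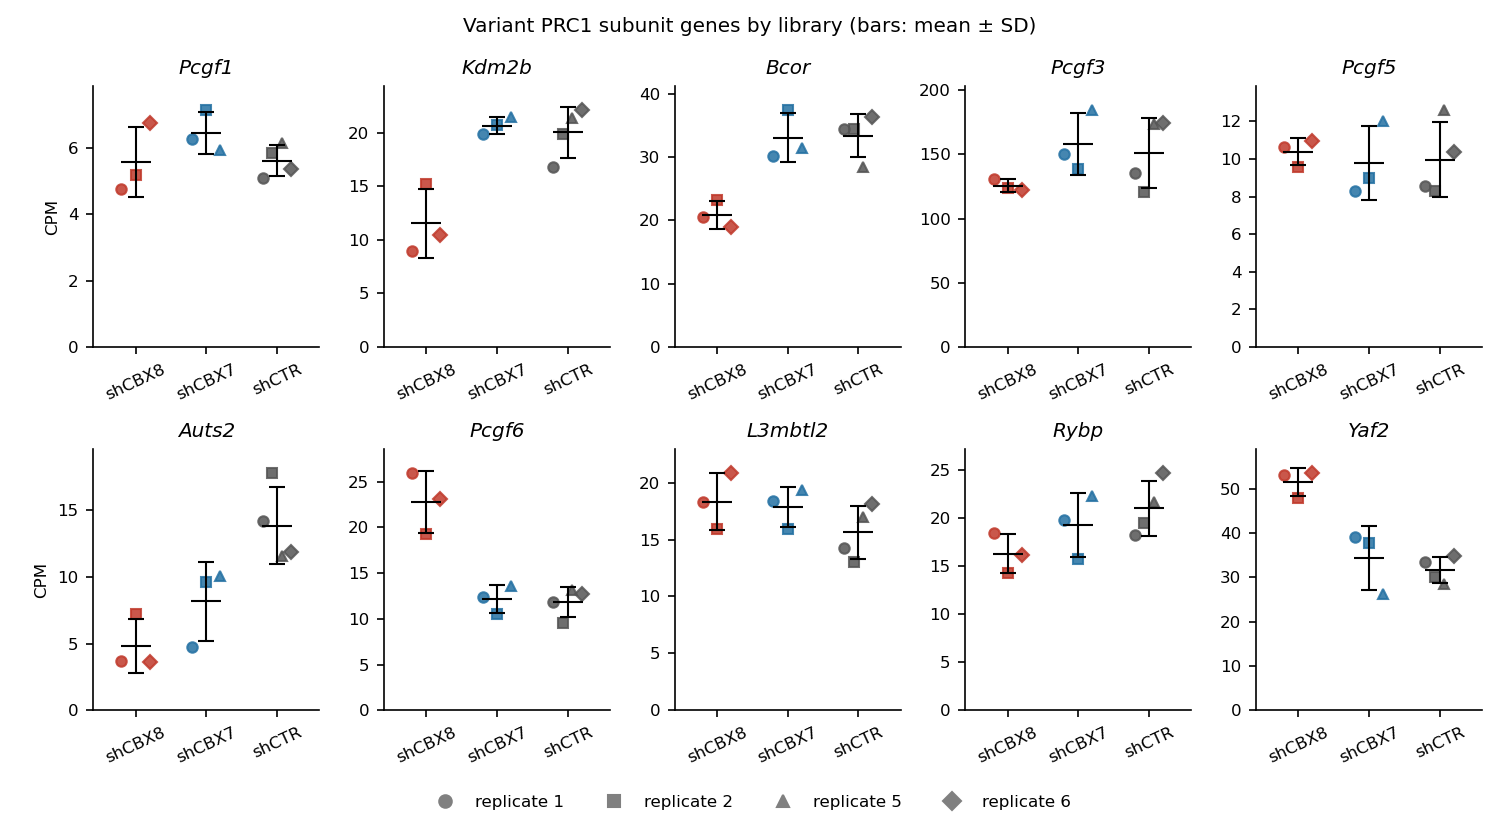
Level in CPM (vertical axes, from 0) of each of the 10 genes in the 10 libraries, grouped as shCBX8, shCBX7 and shCTR; points are libraries, symbols mark the replicate number, and black bars give the mean ± SD. Pcgf6 and Yaf2 lie higher, and Kdm2b, Bcor and Auts2 lower, in all 3 shCBX8 libraries than in all 4 shCTR libraries. How many of all tested genes separate in this way was not counted, so the separation is a description only.

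The complex built on PCGF1 is known as PRC1.1. KDM2B, a CXXC zinc finger protein and H3K36 demethylase, brings it to unmethylated CpG islands, and BCOR, a corepressor, binds PCGF1 directly. Kdm2b (ENSMUSG00000029475, GRCm38 chromosome 5, 122870665 to 122989823, minus strand) measured 8.98, 15.2 and 10.5 CPM in shCBX8 1, 2 and 6, against 16.8, 19.9, 21.4 and 22.2 CPM in shCTR 1, 2, 5 and 6. The groups did not overlap, and shCBX8 2 came nearest to control. Kdm2b fell by 0.80 on the log2 scale (SE 0.19, edgeR adjusted p = 0.0147). Bcor (ENSMUSG00000040363, chromosome X, 12036740 to 12160355, minus strand) measured 20.5, 23.2 and 18.9 CPM in shCBX8, against 34.5, 34.4, 28.5 and 36.3 CPM in shCTR. Here too every shCBX8 library lay below every shCTR library, and shCBX8 2 was again the highest of its group. Bcor fell by 0.68 (SE 0.14, adjusted p = 0.00742). Pcgf1 itself (ENSMUSG00000069678, chromosome 6, 83077869 to 83080855, plus strand), the scaffold that BCOR and the RING protein hold, measured 4.75, 5.20 and 6.77 CPM in shCBX8, against 5.10, 5.86, 6.15 and 5.35 CPM in shCTR. Its groups overlapped, and its log2 fold change was -0.01 with a 95% interval of -0.44 to 0.41 (adjusted p = 0.971). Its counts were 117 to 315 reads per library in shCBX8 and shCTR. Kdm2b overlaps Rnf34 and A930024E05Rik on the opposite strand, and the count used is strand specific.

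The promoters of the 2 PRC1.1 genes that fell and of the PRC1.6 gene that rose are shown for their CpG content, the feature that KDM2B reads in DNA. Each is the RefSeq window of 250 bases before to 50 bases after the start, GRCm38.p6, written 5′ to 3′ along the gene with every CpG in capitals. Kdm2b lies at chr5:122989050-122989349, minus strand, inside the longer GENCODE gene, Bcor at chrX:12160306-12160605, minus strand, and Pcgf6 at chr19:47050857-47051156, minus strand.
Kdm2b: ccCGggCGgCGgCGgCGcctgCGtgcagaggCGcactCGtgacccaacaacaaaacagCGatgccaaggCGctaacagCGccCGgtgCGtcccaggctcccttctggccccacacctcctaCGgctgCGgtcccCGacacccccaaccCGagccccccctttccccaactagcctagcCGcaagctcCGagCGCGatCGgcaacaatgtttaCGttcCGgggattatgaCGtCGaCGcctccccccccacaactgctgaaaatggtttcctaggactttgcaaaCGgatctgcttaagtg
Bcor: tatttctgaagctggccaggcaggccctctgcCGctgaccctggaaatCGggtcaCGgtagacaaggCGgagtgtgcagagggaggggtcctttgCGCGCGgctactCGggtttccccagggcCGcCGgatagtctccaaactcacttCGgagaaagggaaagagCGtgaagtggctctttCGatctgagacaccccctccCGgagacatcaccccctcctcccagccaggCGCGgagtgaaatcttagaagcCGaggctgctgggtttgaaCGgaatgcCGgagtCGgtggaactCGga
Pcgf6: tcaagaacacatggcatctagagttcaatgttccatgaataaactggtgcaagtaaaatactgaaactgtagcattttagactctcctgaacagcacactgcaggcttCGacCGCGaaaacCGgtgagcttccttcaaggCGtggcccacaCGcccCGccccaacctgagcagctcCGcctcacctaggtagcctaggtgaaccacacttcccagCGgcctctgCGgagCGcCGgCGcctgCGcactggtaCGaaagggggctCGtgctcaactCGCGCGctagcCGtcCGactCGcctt

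These windows held 28, 21 and 22 CpGs for Kdm2b, Bcor and Pcgf6. RefSeq windows were matched for 6 of the 10 genes, with 17 to 34 CpGs, while all 32851 windows had a median of 7 and quartiles of 3 and 20. CpG-rich starts were thus shared by genes that rose, fell or did not pass: Pcgf5, which did not pass, had the highest count of the 6.

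PCGF3 and PCGF5 form a closely related pair of complexes, PRC1.3 and PRC1.5, which share AUTS2, a protein tied in mouse neurons to gene activation through p300 and casein kinase 2. Auts2 (ENSMUSG00000029673, chromosome 5, 131437333 to 132543344, minus strand) measured 3.71, 7.18 and 3.63 CPM in shCBX8 1, 2 and 6, against 14.2, 17.8, 11.5 and 11.9 CPM in shCTR 1, 2, 5 and 6. The groups did not overlap, and the highest shCBX8 library was replicate 2. Auts2 fell by 1.52 on the log2 scale (SE 0.35, adjusted p = 0.0126), further than any other of the 10 genes. Counts on the opposite strand of Auts2 were 0.230, 0.0601 and 0.322 CPM in shCBX8, against 1.62, 1.40, 0.889 and 0.374 CPM in shCTR. That is at most 11.5% of the reverse-strand count of a library. Pcgf3 (ENSMUSG00000033623, chromosome 5, 108461232 to 108506976, plus strand) measured 131, 124 and 122 CPM in shCBX8, against 136, 120, 174 and 175 CPM in shCTR. The shCBX8 libraries were tightly grouped and within the range of the control libraries, with a log2 fold change of -0.26 (95% interval -0.62 to 0.10, adjusted p = 0.225). Pcgf5 (ENSMUSG00000024805, chromosome 19, 36348309 to 36460970, plus strand) measured 10.6, 9.58 and 11.0 CPM in shCBX8, against 8.55, 8.31, 12.6 and 10.4 CPM in shCTR. It too overlapped, with a log2 fold change of 0.06 (95% interval -0.40 to 0.52, adjusted p = 0.838).

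PCGF6 defines PRC1.6, which holds the DNA-binding pairs MGA with MAX and E2F6 with a DP protein and the methyl-lysine reader L3MBTL2, and which silences germline genes in mouse embryonic stem cells. Pcgf6 (ENSMUSG00000025050, chromosome 19, 47033617 to 47050906, minus strand) measured 25.9, 19.2 and 23.1 CPM in shCBX8 1, 2 and 6, against 11.8, 9.51, 13.2 and 12.7 CPM in shCTR 1, 2, 5 and 6. The lowest shCBX8 library, replicate 2, was above the highest shCTR library. Pcgf6 rose by 0.95 on the log2 scale (SE 0.17, adjusted p = 0.00519), the smallest adjusted p of the 10 genes. L3mbtl2 (ENSMUSG00000022394, chromosome 15, 81663889 to 81688315, plus strand) measured 18.3, 15.9 and 20.8 CPM in shCBX8, against 14.3, 13.1, 17.0 and 18.2 CPM in shCTR. Its groups overlapped and it did not pass, with a log2 fold change of 0.23 (95% interval -0.14 to 0.60, adjusted p = 0.299).

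RYBP and its homolog YAF2 occupy the same site on the RING subunit, so that a variant complex holds one or the other. Yaf2 (ENSMUSG00000022634, chromosome 15, 93284278 to 93336935, minus strand) measured 53.2, 48.0 and 53.6 CPM in shCBX8, against 33.4, 30.0, 28.6 and 34.9 CPM in shCTR. Every shCBX8 library lay above every shCTR library, and Yaf2 rose by 0.70 on the log2 scale (SE 0.15, adjusted p = 0.00959). Rybp (ENSMUSG00000072872, chromosome 6, 100228565 to 100287485, minus strand) measured 18.4, 14.3 and 16.1 CPM in shCBX8, against 18.2, 19.5, 21.6 and 24.6 CPM in shCTR. Only shCBX8 1 reached into the control range, and the log2 fold change was -0.36 (95% interval -0.75 to 0.02, adjusted p = 0.127). The processed pseudogene Rybp-ps, which could share reads with Rybp, held at most 0.100 CPM in any library.

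Several of these calls rested on single libraries or on the treatment of background. The calls of Auts2 and Kdm2b ended without shCBX8 1 (adjusted p = 0.0607 and 0.0653) and without shCBX8 6 (0.0600 and 0.0683), those of Auts2 and Yaf2 ended when shCTR 1 and 2 were both left out (0.0704 and 0.0649), and with the background measure as a covariate only Kdm2b passed (0.0276, against 0.0741 for Bcor, 0.110 for Pcgf6, 0.167 for Yaf2 and 0.210 for Auts2). That covariate does not overlap between shCBX8 and shCTR, so the fit extrapolates. With it 11.5% of all tested genes were called. The direction of the 5 called genes was the same in each of these settings.

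**Figure D2:**
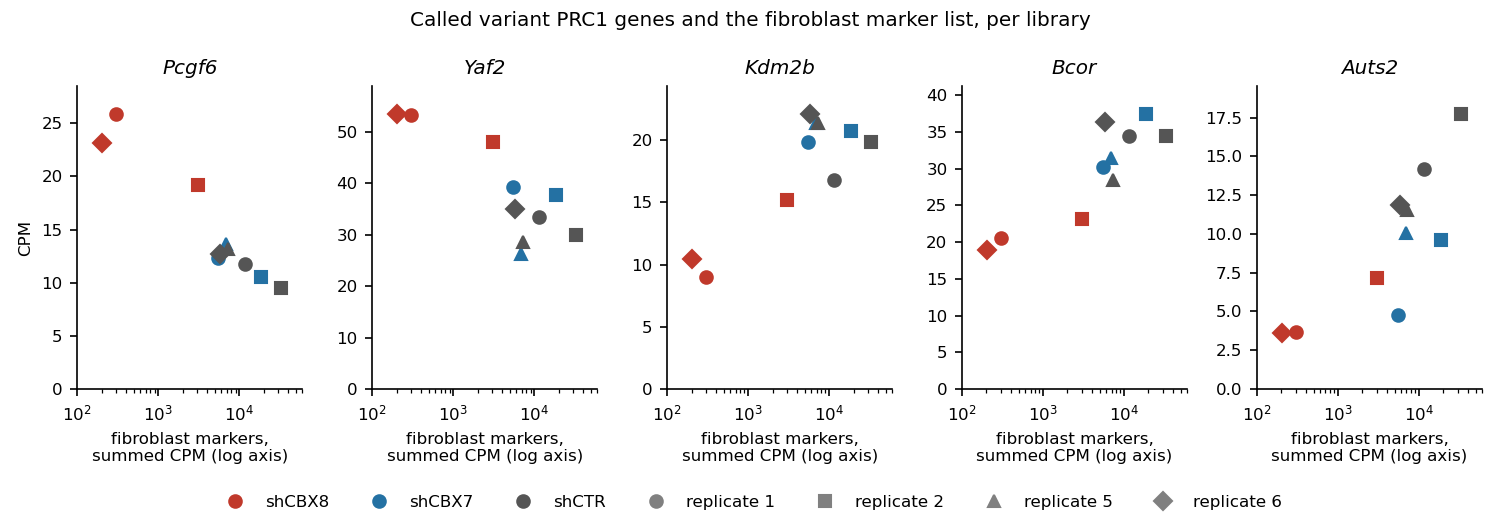
Level in CPM (vertical axes, from 0) of the 5 genes called in shCBX8 against shCTR, plotted against the summed CPM of 10 fibroblast markers (horizontal log axis), 1 point per library with colour for the group and symbol for the replicate number. The shCBX8 libraries lie at 203 to 3057 CPM of markers and the other 7 libraries at 5477 to 33008 CPM, so shCBX8 and shCTR separate on both axes.

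Between shCBX8 and shCTR, the summed fibroblast markers separated along with all 5 called genes. The shCBX8 library with most of them, replicate 2, was in each case the one nearest to the control libraries: highest of the 3 for Kdm2b, Bcor and Auts2 and lowest for Pcgf6 and Yaf2. Within shCTR, the summed marker level ran from 5754 CPM in replicate 6 to 33008 CPM in replicate 2, and Pcgf6 was 12.7 and 9.51 CPM, Yaf2 34.9 and 30.0 CPM, Bcor 36.3 and 34.4 CPM, Kdm2b 22.2 and 19.9 CPM and Auts2 11.9 and 17.8 CPM in those libraries. From replicate 6 to replicate 2, Pcgf6, Yaf2 and Auts2 thus changed in the direction seen from shCBX8 to shCTR. Kdm2b and Bcor changed in the opposite direction. Replicates 5 and 1 of shCTR lay between those replicates, in rising order of summed markers. Over shCTR 6, 5, 1 and 2, Yaf2 was 34.9, 28.6, 33.4 and 30.0 CPM and did not follow that order. Pcgf6 was 12.7, 13.2, 11.8 and 9.51 CPM and Auts2 11.9, 11.5, 14.2 and 17.8 CPM, each out of order only at replicate 5. Among the other markers named above, Krt14, Trp63, Itgb4, Sult1c1 and Rgs5 were higher in every shCBX8 library than in every shCTR library. Krt5 overlapped control. Icam1 was 77.3, 172 and 69.3 CPM in shCBX8, against 163, 245, 204 and 137 CPM in shCTR. The part of these marker differences in the results was not tested.

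With the Cbx7 hairpin, none of the 10 genes passed, and neither did any other: edgeR called 0 of 16669 genes (0% background), with 975 at an unadjusted p under 0.05, DESeq2 called 91, and edgeR called 41 without shCTR 6. The libraries measured 19.9, 20.7 and 21.4 CPM for Kdm2b, 30.2, 37.5 and 31.5 CPM for Bcor, 12.3, 10.5 and 13.6 CPM for Pcgf6 and 39.3, 37.8 and 26.2 CPM for Yaf2 in shCBX7 1, 2 and 5, which overlapped the control ranges given above. The log2 fold changes against shCTR were 0.04 for Kdm2b, -0.02 for Bcor, 0.04 for Pcgf6 and 0.12 for Yaf2, with 95% intervals that reached no further than 0.47 to either side of 0. Auts2 was the exception in size. It measured 4.78, 9.62 and 10.1 CPM in shCBX7 1, 2 and 5, below all 4 shCTR libraries, with a log2 fold change of -0.76 (95% interval -1.53 to 0.01, SE 0.34, edgeR adjusted p = 0.862). The remaining 5 genes overlapped control, with log2 fold changes of 0.20 for Pcgf1, 0.06 for Pcgf3, -0.03 for Pcgf5, 0.19 for L3mbtl2 and -0.12 for Rybp. The median over the 10 genes was 0.04, and that over all tested genes was 0.00.

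**Figure D3:**
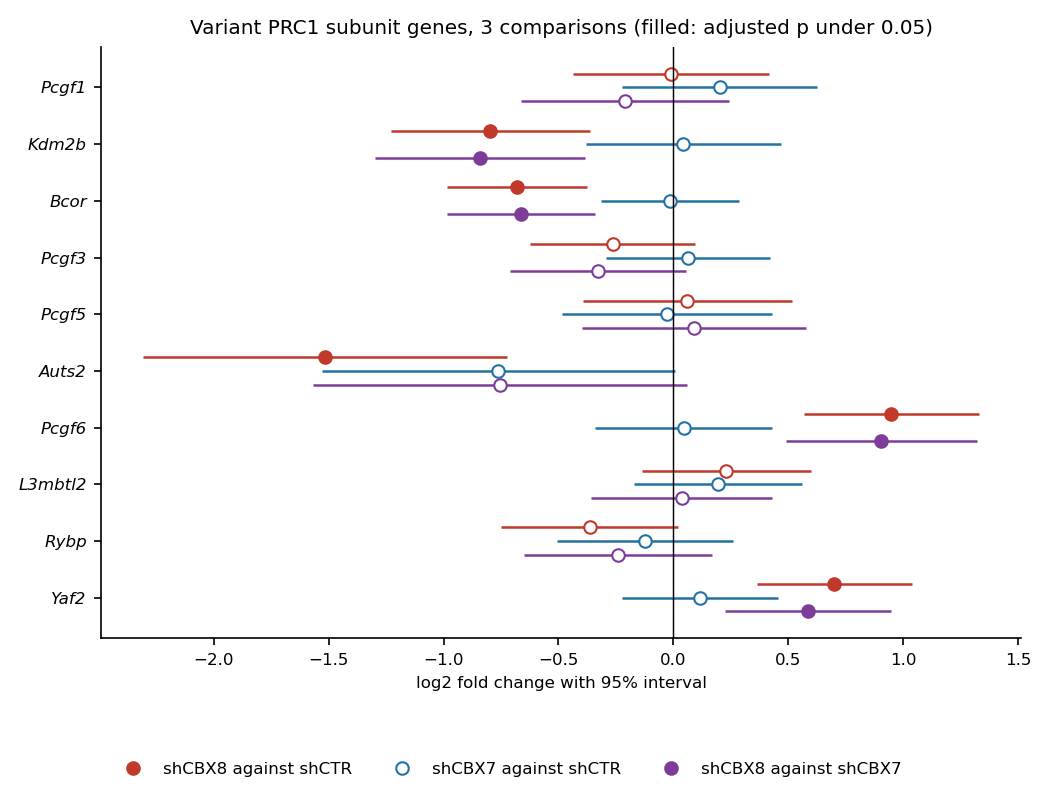
Log2 fold change (horizontal axis) of the 10 genes, top to bottom by complex, in shCBX8 against shCTR (red), shCBX7 against shCTR (blue) and shCBX8 against shCBX7 (purple); lines are 95% intervals and filled points have an edgeR adjusted p under 0.05. The red and purple points of Kdm2b, Bcor, Pcgf6 and Yaf2 are filled, Auts2 has a filled red point at -1.52, and no blue point is filled.

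The hairpins were also compared directly, which tests whether their effects differ; the comparisons with control share the 4 shCTR libraries and are not independent. Of the 10 genes, 4 passed in shCBX8 against shCBX7, where 28.6% of all tested genes were called (15.3% higher and 13.3% lower). Pcgf6 was higher by 0.90 (SE 0.18, adjusted p = 0.00961) and Yaf2 by 0.58 (SE 0.16, adjusted p = 0.0266) on the log2 scale. Kdm2b was lower, at -0.84 (SE 0.20, adjusted p = 0.0167), and Bcor at -0.66 (SE 0.14, adjusted p = 0.0114). For these 4 genes no shCBX8 library overlapped a shCBX7 library. The same held for Pcgf3, at 122 to 131 CPM in shCBX8 and 138 to 185 CPM in shCBX7, which did not pass (adjusted p = 0.170). The share of all tested genes separated in this way was not counted, here or in shCBX8 against shCTR. Auts2 overlapped and did not pass (-0.75, 95% interval -1.57 to 0.06, adjusted p = 0.142), so a difference between the hairpins was not shown for this gene. It passed without shCBX8 2 (adjusted p = 0.0322). The Kdm2b call ended without shCBX8 1 (adjusted p = 0.0660) or 6 (0.0709), that of Bcor without shCBX8 6 (0.0539), and that of Yaf2 in 7 of 20 other settings, among them a fit of the 2 groups alone (0.0620) and the omission of shCBX8 1 (0.0898), shCBX8 6 (0.0913), shCBX7 2 (0.0571) or shCBX7 5 (0.0544).

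Levels can be set against each other only per length. In CPM per kilobase of exon in the shCTR libraries, Yaf2 (17.0 ± 1.56, SD, n = 4) and Pcgf3 (15.8 ± 2.87) stood highest of the 10 genes and overlapped each other. Rybp (4.42 ± 0.596), Bcor (3.86 ± 0.394) and Pcgf1 (3.41 ± 0.288) followed, each overlapping its neighbour. L3mbtl2 (2.63 ± 0.396), Pcgf6 (2.35 ± 0.323) and Kdm2b (1.84 ± 0.219) came next, again overlapping in turn, and Pcgf5 (0.789 ± 0.158) and Auts2 (0.604 ± 0.126), which overlapped, were lowest. Among 14760 protein-coding genes tested, Yaf2 stood above 80.2% and Auts2 above 20.4% in level per kilobase. The order depends on the length taken: per kilobase of the longest transcript in place of all exons, Pcgf3 came first at 19.6 and Pcgf1 rank 3 at 6.12.

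The PCGF pool was described from these levels per kilobase. Pcgf6 made up 10.6, 8.98 and 9.59% of the summed level per kilobase of the 6 PCGF genes in shCBX8 1, 2 and 6, against 4.61, 3.99 and 5.01% in shCBX7 1, 2 and 5 and also against 4.33, 3.74, 4.79 and 4.66% in shCTR 1, 2, 5 and 6. The shCBX8 libraries thus stood apart from the other 7. Bmi1, the canonical PCGF with the highest level, held 49.8 ± 1.78% in shCBX8, 53.5 ± 4.28% in shCBX7 and 55.1 ± 4.08% in shCTR (SD, n = 3, 3 and 4), and Pcgf3, the variant PCGF with the highest level, held 28.4 ± 1.98% in shCBX8, 31.0 ± 4.26% in shCBX7 and 29.5 ± 4.61% in shCTR. Rybp made up 11.1 ± 0.843% of Rybp plus Yaf2 in shCBX8, 18.6 ± 5.80% in shCBX7 and 20.7 ± 2.28% in shCTR. These shares describe RNA, not protein, and were not tested. With the longest transcript as the length, the Pcgf6 share was 13.4% in shCBX8, 6.46% in shCBX7 and 6.27% in shCTR.

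**Figure D4:**
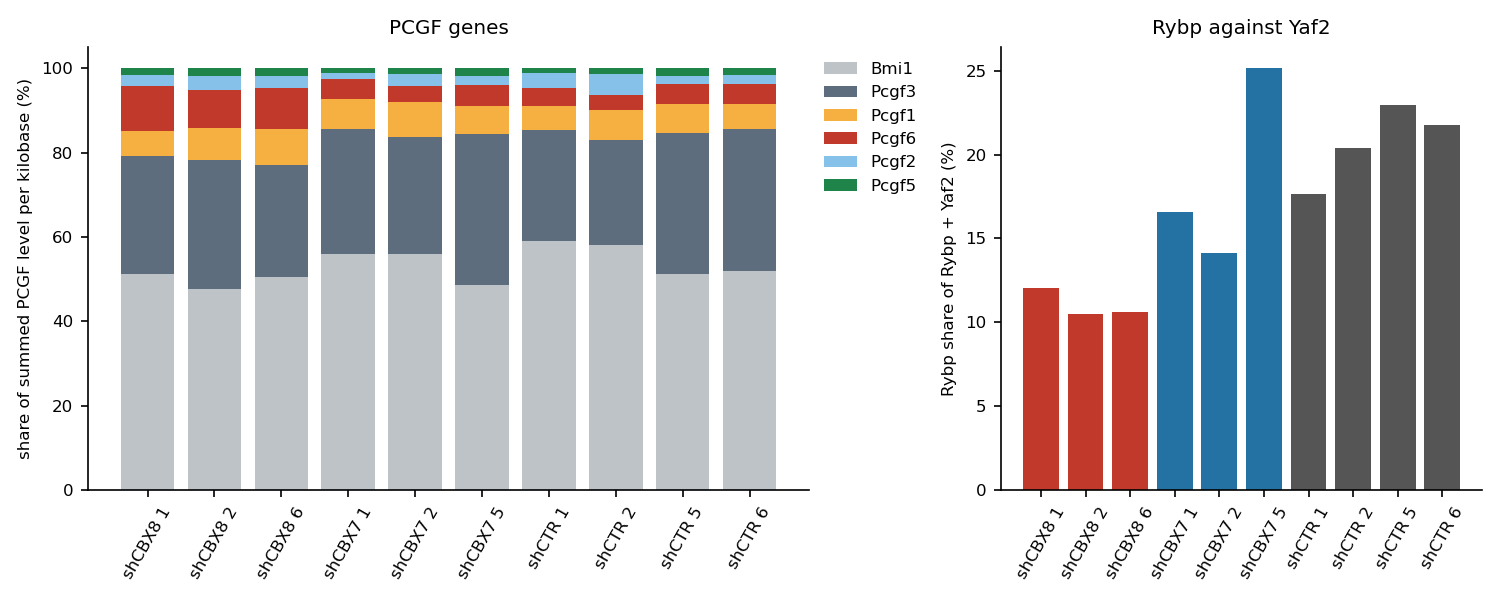
Left, share in percent of the summed level per kilobase of exon held by each of the 6 PCGF genes, as stacked bars for the 10 libraries; right, share in percent of Rybp in Rybp plus Yaf2, with bars from 0 coloured by group. Pcgf6 takes 8.98 to 10.6% in the shCBX8 libraries and at most 5.01% in the other 7, and the Rybp share is 10.5 to 12.03% in shCBX8 and at least 14.1% elsewhere.

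Of 20 other genes of variant PRC1 and of the shared core, 6 rose and 2 fell in shCBX8 against shCTR, with a median log2 fold change of -0.06. That is 40% called, near the 32.9% of all tested genes. The catalytic genes were close to control. Ring1 averaged 20.3 ± 3.27 CPM in shCBX8 and 20.8 ± 1.74 CPM in shCTR (log2 fold change -0.03, adjusted p = 0.898), and Rnf2 averaged 114 ± 24.1 CPM in shCBX8 and 122 ± 23.5 CPM in shCTR (-0.10, adjusted p = 0.719). Among PRC1.6 partners, E2f6, the repressive E2F factor of that complex, rose to 48.8 ± 1.85 CPM in shCBX8, against 33.4 ± 3.14 CPM in shCTR (log2 fold change 0.55, SE 0.11, adjusted p = 0.00823). Cbx1, which encodes heterochromatin protein HP1 beta, rose to 107 ± 12.6 CPM in shCBX8, against 64.5 ± 12.1 CPM in shCTR (0.74, SE 0.17, adjusted p = 0.0123), and the deacetylase gene Hdac1 to 48.9 ± 4.86 CPM in shCBX8, against 33.6 ± 5.20 CPM in shCTR (0.54, SE 0.15, adjusted p = 0.0218). Dcaf7, a WD40 protein of PRC1.3 and PRC1.5, fell to 170 ± 11.7 CPM in shCBX8, against 238 ± 36.3 CPM in shCTR (-0.49, SE 0.14, adjusted p = 0.0276). Among the 9 PRC1.6 partners 3 rose and 1 fell, among the 6 partners of PRC1.3 and PRC1.5 2 rose and 1 fell, and among the 3 PRC1.1 partners 1 rose. Without shCBX8 1, and likewise without shCBX8 6, 1 of the 20 passed, while 13.1% and 13.2% of all tested genes were called. The calls of Cbx1, Hdac1 and Dcaf7 ended without shCBX8 1 (adjusted p = 0.0537, 0.0887 and 0.102) and without shCBX8 6 (0.0543, 0.0606 and 0.113), and those of Hdac1 and Dcaf7 also without shCTR 5 (0.0558 and 0.0612). With the background covariate or without shCTR 1 and 2, E2f6 (0.161 and 0.0696) and Cbx1 (0.372 and 0.102) did not pass. With the replicate number as a block, 5 partners passed, all higher, and Dcaf7 (adjusted p = 0.0541), Tfdp1 (0.0767) and Skp1a (0.0806) did not. Of all tested genes, 36.2% were called with the block. With the background covariate Rnf2 turned to 0.68 and passed (adjusted p = 0.0478).

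**Figure D5:**
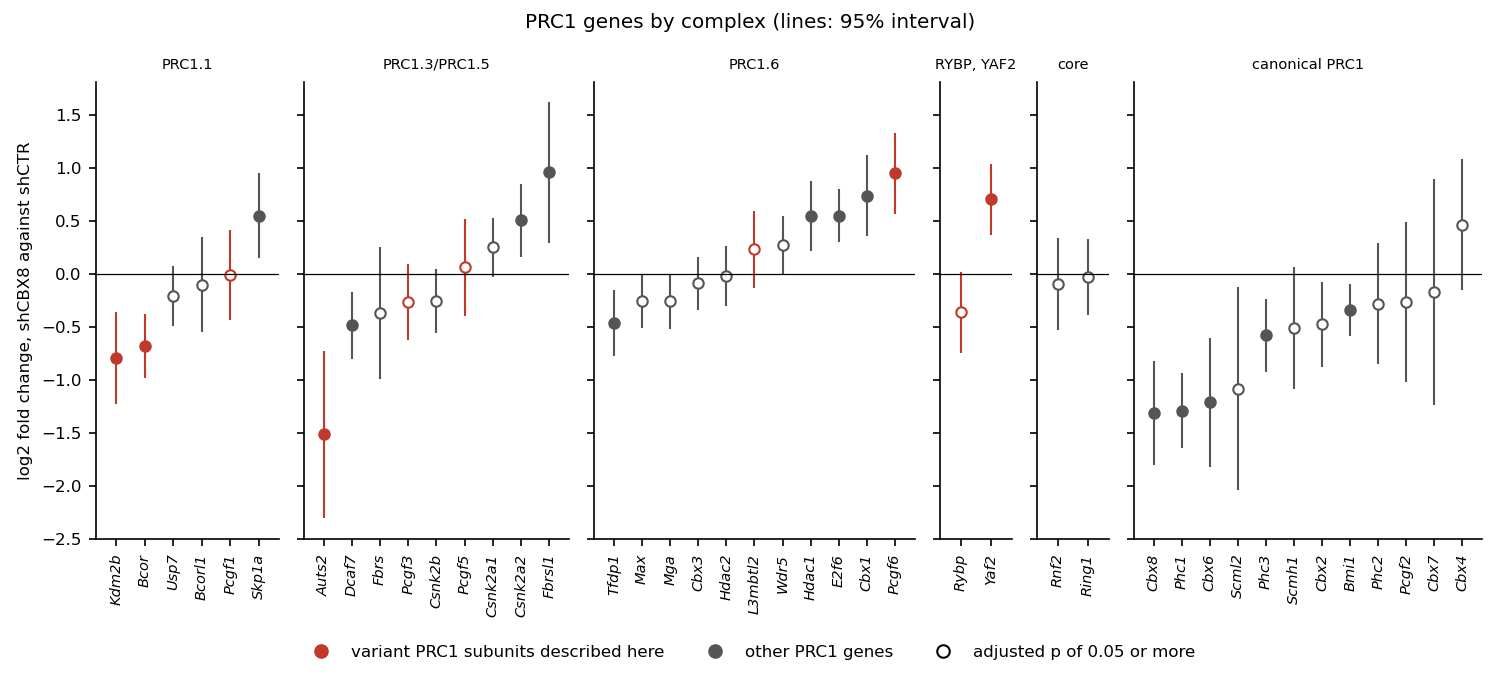
Log2 fold change in shCBX8 against shCTR (vertical axis) of the PRC1 genes, grouped by complex; red points are the 10 variant subunits, grey points the other PRC1 genes, lines the 95% intervals, and open points have an adjusted p of 0.05 or more. Called genes of canonical PRC1 all lie below 0, while those of the variant complexes lie on both sides.

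Of the 12 canonical genes, 5 fell and none rose, with a median log2 fold change of -0.49, where 15.9% of all tested genes were lower and 17% higher. The difference from the other lists was not tested. Phc1, a Polyhomeotic gene whose product links PRC1 complexes to one another, fell to 5.21 ± 0.217 CPM in shCBX8, against 12.7 ± 0.944 CPM in shCTR (-1.29, SE 0.16, adjusted p = 0.00156). Beside the targeted Cbx8, the chromodomain gene Cbx6 (-1.21, SE 0.27, adjusted p = 0.0112), Phc3 (-0.58, SE 0.15, adjusted p = 0.0209) and Bmi1 (-0.34, SE 0.11, adjusted p = 0.0375) fell, and Pcgf2 did not pass (-0.27, adjusted p = 0.568). The Bmi1 call ended in 11 of 20 other settings, with an adjusted p of up to 0.631. Without shCBX8 1, and likewise without shCBX8 6, 2 of the 12 passed, beside 13.1% and 13.2% of all tested genes. The calls of Cbx6 and Phc3 ended without shCBX8 1 (adjusted p = 0.0525 and 0.0608), without shCBX8 6 (0.0538 and 0.0881) and with the background covariate (0.261 and 0.728). Phc1 passed in all 20. A scaling by library size alone shifted the median of all genes by 0.18. Under it 3 canonical genes passed, and 67.2% of all called genes were then higher, against 51.6% with the scaling used here. In shCBX7 against shCTR no gene of either list passed. In shCBX8 against shCBX7, 1 of the 20 other genes of variant PRC1 and the core was higher (Hdac1) and 2 were lower (Dcaf7 and Tfdp1, the DP partner of E2F), while 4 of the 12 canonical genes were lower (Phc1, Cbx8, Cbx2 and Cbx6), beside 28.6% of all tested genes called. The calls of Hdac1, Dcaf7, Tfdp1, Cbx2 and Cbx6 there ended without shCBX8 1 or without shCBX8 6 (adjusted p = 0.0520 to 0.132), those of Hdac1 without any 1 of the shCBX7 libraries (0.0524 to 0.107), of Tfdp1 without shCBX7 1 (0.0630) and of Cbx6 without shCBX7 2 (0.0594).

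Germline genes that PRC1.6 silences in mouse embryonic stem cells were read out beside Pcgf6. Of 17 listed, 8 passed the filter on low counts, and the other 9 reached at most 0.831 CPM in any library, so the tests below concern the 8 alone. Sycp1 and Tdrd1 passed that filter only through their shCBX8 libraries, so counts and medians over the 8 are not read as support. Ddx4, the germ cell RNA helicase Vasa, measured 1.86, 1.02 and 2.54 CPM in shCBX8 1, 2 and 6. It was at 0.189, 0.119 and 0.214 CPM in shCBX7 1, 2 and 5 and at 0.712, 0.451, 0.854 and 0.460 CPM in shCTR 1, 2, 5 and 6. Sycp1, of the synaptonemal complex, measured 1.74, 0.991 and 0.902 CPM in shCBX8, against 0.0421, 0.178 and 0.190 CPM in shCBX7 and against 0.396, 0.501, 0.107 and 0.201 CPM in shCTR. Both were highest in all 3 shCBX8 libraries. Both rose in shCBX8 against shCTR, Ddx4 by 1.54 (SE 0.39, adjusted p = 0.0168) and Sycp1 by 2.04 (SE 0.57, adjusted p = 0.0244) on the log2 scale, beside 32.9% of all tested genes called. With no filter on low counts, where a gene's level does not decide whether it is tested, the adjusted p of Sycp1 was 0.0291 against shCTR and 0.00940 against shCBX7. In shCBX8 against shCBX7, where 28.6% of all tested genes were called, 4 were higher: Ddx4 (3.34, adjusted p = 0.00296), the cohesin gene Smc1b (2.74, adjusted p = 0.00872), Sycp1 (3.15, adjusted p = 0.0100) and the RNA-binding protein gene Dazl (2.37, adjusted p = 0.0462). Smc1b (0.42, adjusted p = 0.493) and Dazl (-0.30, adjusted p = 0.743) did not pass in shCBX8 against shCTR. In shCBX7 against shCTR none passed, with log2 fold changes of -1.80 for Ddx4, -2.32 for Smc1b, -1.11 for Sycp1 and -2.67 for Dazl. The differences between the hairpins thus also hold low values in shCBX7. These levels are low: Ddx4 had 34 to 118 reads per library in shCBX8 and 4 to 24 in the others. On the opposite strand, Sycp1 reached 0.0645 CPM in shCBX8, 0.0238 CPM in shCBX7 and 0.427 CPM in shCTR, and Ddx4 reached 0.0209 CPM in shCBX8, 0 CPM in shCBX7 and 0.237 CPM in shCTR, so the background in shCTR was of the order of the Sycp1 level there. The calls of both against shCTR ended without shCBX8 1 (adjusted p = 0.0596 for Ddx4 and 0.103 for Sycp1) or shCBX8 6 (0.0811 and 0.0538). That of Sycp1 also ended without shCTR 5 (0.0530) or shCTR 6 (0.0513). That of Ddx4 also ended with the background covariate (0.0876) and when shCTR 1 and 2 were both left out (0.0927). In shCBX8 against shCBX7 the call of Ddx4 held in all 19 other settings that tested it, while that of Dazl ended in 10 of 19, among them the omission of any 1 of the 6 libraries compared (0.0732 to 0.129).

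The promoters of the 2 germline genes that rose are shown because the DNA-binding pairs of PRC1.6 have known preferred sequences, the E-box CACGTG for MGA with MAX and GCGGGA for E2F6 with its DP partner. Both motifs were searched on both strands, where they can share a G or a C if they meet, and matches are in capitals. Ddx4 lies at chr13:112652261-112652560, minus strand, and Sycp1 at chr3:102936051-102936350, minus strand (RefSeq, GRCm38.p6, 250 bases before to 50 after the start).
Ddx4: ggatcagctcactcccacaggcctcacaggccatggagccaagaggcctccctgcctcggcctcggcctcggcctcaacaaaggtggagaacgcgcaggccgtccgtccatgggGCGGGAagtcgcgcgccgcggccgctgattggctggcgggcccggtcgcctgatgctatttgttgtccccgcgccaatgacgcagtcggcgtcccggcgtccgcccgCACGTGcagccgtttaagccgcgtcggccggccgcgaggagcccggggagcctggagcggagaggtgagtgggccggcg
Sycp1: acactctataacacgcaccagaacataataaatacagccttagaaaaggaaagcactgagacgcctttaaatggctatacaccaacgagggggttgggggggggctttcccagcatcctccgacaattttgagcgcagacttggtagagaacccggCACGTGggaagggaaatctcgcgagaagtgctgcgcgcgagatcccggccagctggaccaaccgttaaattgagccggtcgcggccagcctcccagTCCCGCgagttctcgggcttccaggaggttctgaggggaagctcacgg

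CACGTG was in the windows of 10 of 16 matched germline genes and GCGGGA in 10, with both in 7, while 7.15% and 19.98% of all 32851 windows held them. Both motifs contain a CpG, and the germline windows had a median of 23 CpGs, against 7 in all windows. The shares over all windows are thus not matched for CpG content. Of 10 matched windows of canonical genes, 6 held CACGTG, 5 GCGGGA and 4 both, and of 18 matched windows of the other variant and core genes, 3 held CACGTG, 8 GCGGGA and 2 both, so neither motif was particular to the germline list. Neither was in any of the 6 matched windows of the variant subunits. A match is a description of the sequence and not of binding.

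The genes whose profiles over the 10 libraries were most like those of the called genes with the smallest p were picked among 14759 protein-coding genes. Nearest to Pcgf6 were Ktn1, 2700097O09Rik and Lrrc28, with root mean square differences of 0.07, 0.08 and 0.09 in centred log2(CPM + 1), beside a spread of 0.43 for Pcgf6 about its own mean. Nearest to Bcor were Armh3, Sbf2 and Zbtb4, each at 0.08, beside 0.32 for Bcor. Ktn1, the kinectin gene, was the closest of all: 385, 287 and 350 CPM in shCBX8 1, 2 and 6, against 170, 150 and 225 CPM in shCBX7 1, 2 and 5 and against 183, 143, 197 and 201 CPM in shCTR 1, 2, 5 and 6. Like Pcgf6, it was lowest within each group in replicate 2, but it was picked for likeness to that profile, so this is no separate observation.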

How the data were processed

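Libraries were stranded, from 500 ng of total RNA, per the labels' protocols, and the submitters' processing notes name Trim Galore 0.4.3, STAR 2.5.0a and the build mm10. The annotation behind the counts was not given in the sources used here. Values deposited are raw read counts per Ensembl gene, and the reverse-strand count was used. Read totals without a gene name stayed out of library sizes: unmapped (5.03 to 21.7% of reads), multimapping (15.4 to 22.1%), ambiguous (0.290 to 0.637%) and outside genes (12.5 to 23.6%). Of 41091 identifiers, 40217 matched GENCODE M21 symbols (GRCm38).

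Genes were filtered with filterByExpr (minimum count of 10), scaled by the TMM method and tested with edgeR 4.0.16 (quasi-likelihood test, all 10 libraries, group only) in R 4.3.3, with Benjamini-Hochberg adjustment over 16669 genes and a threshold of 0.05. The fit was tested on simulated data. CPM are relative to the scaled library sizes, and lengths are unions of exons. As a measure of precision, the 95% interval of a log2 fold change reached a median of 0.61 to either side in shCBX8 and 0.60 in shCBX7 against shCTR, and 0.65 between the hairpins. Libraries of a group differed by more than sampling noise (chi-square per degree of freedom 28.1 to 445). The lowest value, 28.1, was that of shCBX8 1 with shCBX8 6, and all other pairs within a group were at 111 to 445. These 2 shCBX8 libraries were thus more alike than any other pair of a group, and the reason was not tested. Deviations from group means were correlated across genes between same-numbered shCBX8 and shCTR libraries (r = 0.23, 0.29 and 0.13 for replicates 1, 2 and 6). Pairs with different numbers ran from -0.32 to 0.18, below the values of replicates 1 and 2 but reaching above that of replicate 6. Pairing by number was thus neither shown nor excluded. The main fit did not pair libraries.

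The genes, lists and tests were chosen with earlier results of these data known. Named were all 10 genes, Ring1, Rnf2, Pcgf2, Bmi1, Cbx7 and Cbx8, up to 4 genes of each other list with the smallest p in a comparison, and the 3 nearest profiles. Alternatives were median-ratio scaling, library size only, DESeq2 1.42.0, no filter on low counts, a mean over 1 CPM, unstranded counts, the replicate block, a fit of the 2 groups alone, each library left out, shCTR 1 and 2 left out, and a background covariate (log2 CPM opposite to transcription over 1653 receptor genes). Promoters are from RefSeq.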

Additional observations from a re-analysis of the deposited data

Results flagged for a closer look

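Among the 50 tested genes of the 4 lists, the direct test of shCBX8 against shCBX7 called 15 as differing between the hairpins, where 28.6% of all tested genes were called. The share in the lists is near that background. The log2 differences follow. Among the variant subunits these were Pcgf6 (0.90), Yaf2 (0.58), Bcor (-0.66) and Kdm2b (-0.84). Among their partners they were Hdac1 (0.52), Tfdp1 (-0.58) and Dcaf7 (-0.68), and among canonical genes Cbx2 (-0.74), Cbx6 (-1.09), Phc1 (-1.17) and the targeted Cbx8 (-1.33). Among germline genes they were Ddx4 (3.34), Sycp1 (3.15), Smc1b (2.74) and Dazl (2.37).

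Within the 4 shCTR libraries, 1 library stood far from the others for 2 of 50 genes: Fbrs at 11.97 CPM in shCTR 6 and Cbx6 at 283 CPM in shCTR 2. Chance alone gives this in about 1 in 20 groups of values. None of the 10 variant subunits had such a library.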

How the results depend on the processing

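The 5 calls in shCBX8 against shCTR and the 4 in shCBX8 against shCBX7 kept their direction in each of 20 other settings. Gene counts and lists depend most on shCBX8 1 and 6 and on background. With the background covariate, calls in shCBX8 against shCTR were 1911 genes over all, 1 of the 10 variant subunits, 5 partners, 3 canonical and 1 germline gene, and in shCBX8 against shCBX7 5 partners. Without shCTR 1 and 2 they were 2409, 3 subunits, 3 partners and 1 germline gene in shCBX8 against shCTR, and 5 partners in shCBX8 against shCBX7. Library size alone gave 3 canonical genes in shCBX8 against shCTR and 5 partners in shCBX8 against shCBX7. A mean of at least 1 CPM removed the germline calls (0 in both comparisons of shCBX8, by fewer genes tested) and gave 6 partners in shCBX8 against shCBX7. DESeq2 gave 91 genes and 1 germline gene in shCBX7 against shCTR, and 6 partners in shCBX8 against shCBX7. Without a filter 4 partners passed in shCBX8 against shCTR. Shares of all tested genes called in that comparison were 11.5% with the covariate and 14.3% without shCTR 1 and 2. They were 33.6% with library size alone and 12.6% without a filter. In shCBX8 against shCBX7 they were 27.9% with the covariate, 29.4% without shCTR 1 and 2 and 27.8% with library size alone. There they were 30.1% with a mean of at least 1 CPM and 37.5% with DESeq2.

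With the replicate block, 6036 genes and 5 subunits passed in shCBX8 against shCTR, and 5 partners, none of them lower. For shCBX7 and shCTR the same check gave r = -0.07, 0.76 and 0.41 for replicates 1, 2 and 5. Pairs with different numbers ran from -0.61 to 0.52 there, below the value of replicate 2 only, so pairing by number was again neither shown nor excluded. The shCBX8 and shCBX7 libraries share 2 numbers (r = 0.17 and 0.36). With the block, 0 genes passed in shCBX7 against shCTR and 4661 in shCBX8 against shCBX7, where Tfdp1 did not pass (adjusted p = 0.0585) and Csnk2a2 (0.0376) and Fbrsl1 (0.0427) did. Among the genes of the 4 lists, the block changed no other call beside these 3 and those of Dcaf7, Tfdp1 and Skp1a in shCBX8 against shCTR. The exact permutation p of Cbx8 in shCBX8 (difference -1.14 in log2(CPM + 1)) was 0.0571 with the smaller tail doubled. It was 0.0286 by the absolute difference, which was chosen after seeing the data. For Cbx7 in shCBX7 the exact permutation p was 0.343 and 0.314 in those forms.

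When 1 library was left out, calls in shCBX8 against shCTR were 2261 to 6193 genes, 3 to 5 subunits, 1 to 7 partners, 2 to 6 canonical and 0 to 2 germline genes. In shCBX8 against shCBX7 they were 1784 to 6005 genes, 1 to 5 subunits, 0 to 7 partners and 2 to 5 canonical genes, and in shCBX7 against shCTR 0 to 41 genes, with 41 without shCTR 6. The lowest counts came without shCBX8 1 or 6. Without shCBX8 2, 6193 genes passed in shCBX8 against shCTR and 6005 in shCBX8 against shCBX7.

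Values that had not passed changed sign in some settings, and the cause was not tested. In shCBX8 against shCTR with the background covariate these were Cbx7 (1.75), L3mbtl2 (-0.034), Pcgf1 (0.052), Pcgf2 (0.57), Pcgf5 (-0.11), Ring1 (0.16) and Rnf2 (0.68, which passed). With library size alone they were Cbx7 (0.029), Pcgf1 (0.18), Ring1 (0.16) and Rnf2 (0.097). Without shCTR 1 and 2 they were Cbx7 (0.30), Pcgf2 (0.23), Pcgf5 (-0.16), Ring1 (0.016) and Rnf2 (0.12). Others were Cbx7 with the replicate block (0.094), Pcgf1 with a mean of at least 1 CPM (0.011) or no filter (0.020), and Ring1 with no filter (0.0006) or unstranded counts (0.019). With 1 library left out, Pcgf1 ran from -0.17 to 0.10, Pcgf5 from -0.045 to 0.19, Ring1 from -0.16 to 0.065 and Rnf2 from -0.24 to 0.057.

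In shCBX7 against shCTR with the background covariate they were Cbx7 (1.68), Kdm2b (-0.60), L3mbtl2 (-0.15), Pcgf3 (-0.39) and Pcgf6 (-0.074). Without shCTR 1 and 2 they were Bcor (0.032), Kdm2b (-0.075), Pcgf3 (-0.14) and Pcgf6 (-0.088). Bcor and Pcgf5 turned with library size alone (0.020 and 0.0028), no filter (0.049 and 0.034) and unstranded counts (0.065 and 0.050), and Cbx8 with a mean of at least 1 CPM (-0.023) or the replicate block (-0.016). With 1 library left out, Bcor ran from -0.093 to 0.066, Cbx8 from -0.16 to 0.16, Kdm2b from -0.042 to 0.094, Pcgf3 from -0.054 to 0.17, Pcgf5 from -0.19 to 0.10, Pcgf6 from -0.045 to 0.16 and Rybp from -0.23 to 0.022. In shCBX8 against shCBX7, L3mbtl2 turned with the replicate block (-0.0029) and ran from -0.083 to 0.12 with 1 library left out, and Pcgf5 from -0.053 to 0.25. Of all fold changes of named genes across settings, 991 kept direction and side of the threshold and 95 did not pass any more. In the same direction 1 passed anew, and 67 turned, among them Rnf2 with the background covariate, which passed. Depth was low for germline genes, with 2 to 24 reads per library for Ddx4 and Sycp1 outside shCBX8, and no alternative changed the depth.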
